A study of Mus musculus with 8 samples.

Results

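The cells described here are NKT-like cells of the mouse spleen, chosen by their transcripts from single-cell RNA libraries. A cell was a member if it carried at least 2 UMIs (unique molecular identifiers, 1 per captured transcript) of the CD3 genes Cd3d, Cd3e and Cd3g together, at most 1 UMI of the B cell genes Cd79a and Ms4a1, no UMI of Cd8a, Cd8b1 or Trdc, and a UMI of at least 2 of the 4 natural killer (NK) type genes Klrb1c, Zbtb16, Xcl1 and Ncr1. There were 287 members among 42183 cells of 4 libraries of total live splenocytes. The control mice carried Cγ1Cre and the Rosa26-YFP LSL reporter, and the cKO mice carried in addition Eif3e fl/fl, which Cre turns into a deletion of a translation initiation factor subunit. All mice were 2 months old and, by the study's methods, each library pooled cells of 2 to 3 mice, with 2 libraries per genotype (control 1 and 2, cKO 1 and 2) and 1 of each genotype in each of 2 batches. Cγ1Cre is driven from the immunoglobulin γ1 constant region locus of activated B cells, so the genotype label does not say whether Eif3e was deleted in NKT-like cells. Levels are given in CPM, counts per 1e+06 UMIs in the summed cells of a class and library. Eif3e (chromosome 15, positions 43250058 to 43282719, minus strand, in GENCODE vM21 on GRCm38, as all positions here) stood in members at 237 and 294 CPM in control and 255 and 307 CPM in cKO. Since the kit reads the 3′ end of a transcript and the floxed segment may be elsewhere, these levels check neither the deletion nor the labels.

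Natural killer T cells are T cells that carry NK receptors. The best known kind uses a semi-invariant αβ T cell receptor that recognises glycolipids on CD1d, acquires an effector state during thymic development under the transcription factor PLZF (encoded by Zbtb16), and releases IL-4 and IFN-γ within hours of stimulation. NKT1 cells are described by T-bet and IFN-γ, NKT2 cells by GATA3 and IL-4, and NKT17 cells by IL-17. NK-type genes can also be carried by NK cells, by conventional T cells after activation and by γδ T cells, so the 4 genes of the rule do not by themselves name the cell.

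The rule let a cell in by several routes. Klrb1c (NK1.1, chromosome 6, 128778485 to 128789215, minus strand) was detected in 85.4% of members, Xcl1 (lymphotactin, chromosome 1, 164931644 to 164935527, minus strand) in 82.9%, Zbtb16 (chromosome 9, 48654297 to 48836222, minus strand) in 67.6% and Ncr1 (NKp46, chromosome 7, 4337724 to 4345164, plus strand) in 14.6%. The commonest combination was Klrb1c with Zbtb16 and Xcl1, in 105 members, followed by Klrb1c with Xcl1 in 59, Klrb1c with Zbtb16 in 42, Zbtb16 with Xcl1 in 39 and Klrb1c with Xcl1 and Ncr1 in 27. Of the members, 147 carried 2 of the 4 genes, 135 carried 3 and 5 carried all 4. CD3 UMIs per member had a median of 11, and 10 members had exactly 2. These values chose the cells and are given as a description only.

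Genes outside the rule were used to check the name. Trac, the constant region of the T cell receptor α chain, was detected in 88.4%, 92.8%, 88.2% and 90.6% of the members of control 1, control 2, cKO 1 and cKO 2, the order of all such shares here, and 285 members (99.3%) had a UMI of Trac, Trbc1 or Trbc2. In NK cells gated by the same 4 genes but with no CD3 UMI (557 cells) Trac was seen in 6.71%, 7.78%, 7.94% and 16.1%. Tyrobp (DAP12, the signalling adaptor of NK receptors) showed the opposite, in 30.4%, 17.5%, 17.6% and 30.2% of members and 99.4%, 99.4%, 98.4% and 100% of NK cells. Members had to carry CD3 UMIs and NK cells to lack them, so the gates favour this gap, and their part in it was not tested. Trac was also found in 59.3%, 65.6%, 48.1% and 64.9% of T cells with a Trdc UMI. Trac therefore does not by itself show an αβ T cell.

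Cxcr6, a chemokine receptor of NKT and tissue-homing T cells (chromosome 9, 123806475 to 123811760, plus strand), was detected in 72.5%, 78.4%, 76.5% and 73.6% of members. The share was 1.51%, 2.69%, 3.22% and 4.73% in the 5337 other CD8-negative T cells, which pass the same gates with none of the 4 NK-type genes, and 4.88%, 3.33%, 2.38% and 1.15% in NK cells. With each cell thinned to 3000 UMIs the members' shares were 57.4%, 75%, 71.4% and 67.3%. Cd4 was detected in 31.9%, 34%, 23.5% and 32.1% of members against 78.6%, 70.6%, 77% and 81.4% of the other T cells. Trav11, the invariant α chain segment, had no UMI in members, and most droplet reads from 3′ ends do not reach V segments, so the invariant receptor itself was not tested here.

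The edges of the rule can be set beside its core. T cells that met every gate but carried exactly 1 NK-type gene numbered 40 and 52 in control and 62 and 83 in cKO. Cxcr6 was found in 32.5%, 26.9%, 22.6% and 25.3% of them, against 71%, 78.8%, 74.3% and 72.4% of the members with exactly 2 NK-type genes. The cells with 2 to 4 NK-type genes but only 1 CD3 UMI numbered 15, 13, 3 and 5, and Tyrobp was in 100% of them in each library, with Trac in 6.67%, 7.69%, 0% and 20%. No member was marked by the doublet caller, which marked 1.76% to 3.55% of cells per library. The gates on B cell and CD8 genes already exclude doublets with cells that carry those transcripts, so the lack of marked members is no check on them. Doublets of a T cell with an NK cell could pass the rule and were not tested. The summed level of 9 B cell markers was between 191 and 389 CPM in members, 300.3 to 478 in other CD8-negative T cells and 247 to 382 in NK cells. Cd79a and Ms4a1 are among the 9 and are genes of the rule, capped by the gate in each of these classes. The sum is therefore a description only. The sum of 8 myeloid markers was 426 CPM in the members of cKO 1 and 122 to 175 in the other libraries. The part of these transcripts in any result below was not tested.

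Across the series, the 4 libraries held 71894780 to 88513929 UMIs and median counts of 5250 to 6721 UMIs per cell, and any pair of the 8 libraries shared 51 to 102 cell barcodes. Members had medians of 7734 and 5721 UMIs in control and 5425 and 5537 in cKO. Xist, which female cells transcribe, was at 504 CPM in the members of cKO 1 and had no UMI in those of the other 3 libraries, while the Y-linked gene Ddx3y stood at 163 and 123 CPM in control and 70.6 and 134 CPM in cKO. The sex of the pools therefore differs between libraries and, with 1 such pool, its part in a difference that rests on cKO 1 cannot be told apart from that library.

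NKT-like cells made up 0.721% of the cells of control 1 (69 of 9566, exact 95% binomial interval 0.562% to 0.912%), 0.839% of control 2 (97 of 11559, 0.681% to 1.02%), 0.649% of cKO 1 (68 of 10476, 0.504% to 0.822%) and 0.501% of cKO 2 (53 of 10582, 0.375% to 0.655%). These intervals cover counting error only. The mean was 0.780% ± 0.0833 in control and 0.575% ± 0.105 in cKO (SD, n = 2), and the groups did not overlap. An exact two-sided permutation test over libraries gave p = 0.333, the smallest that 2 against 2 allows. By edgeR on the cell numbers of 7 classes the log2 fold change was −0.44 ± 0.193 (SE, adjusted p 0.158), and with TMM scaling over the classes it was 0.02 (adjusted p 0.929). The share was not shown to differ by genotype. As a share of the cells past the CD3 and B gates, members were 2.65% and 3.56% in control and 2.78% and 1.88% in cKO, which overlapped (exact permutation p = 0.667).

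**Figure D1:**
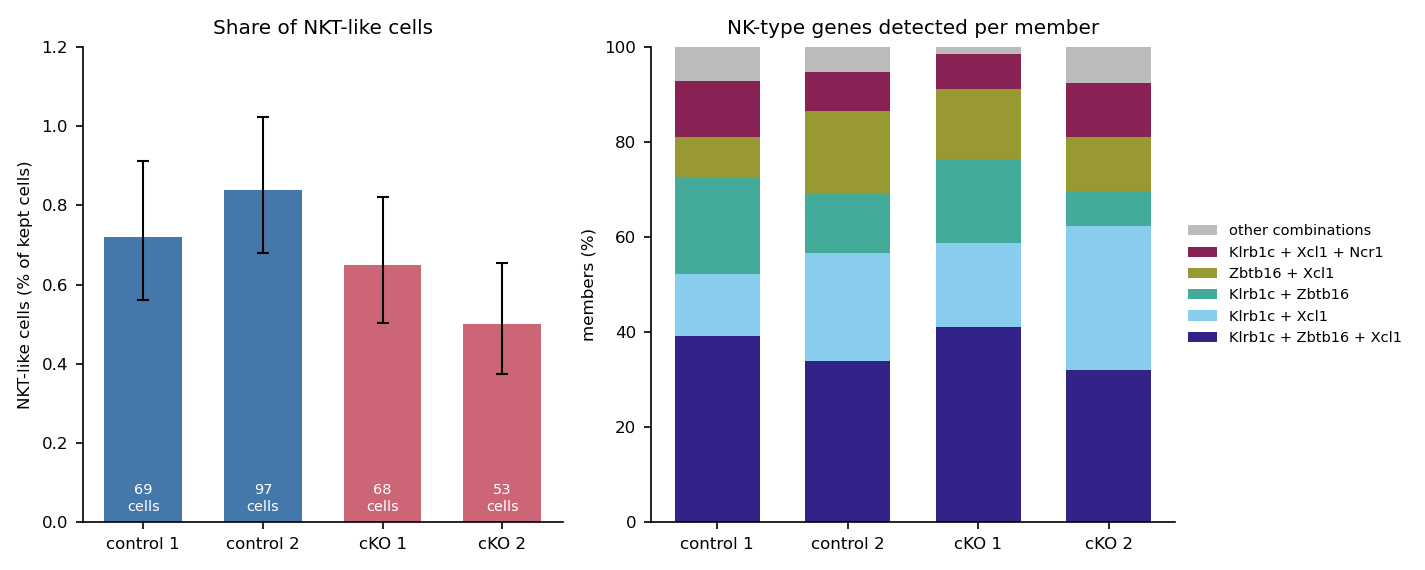
The left panel gives NKT-like cells as percent of the kept cells of each total library (bars, with the number of members) with exact 95% binomial intervals as error bars, 0.721% and 0.839% in control and 0.649% and 0.501% in cKO. The right panel divides the members of each library by which NK-type genes were detected, and Klrb1c with Zbtb16 and Xcl1 is the largest block in all 4 libraries.

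Other CD8-negative T cells of the same libraries had to lack all 4 NK-type genes while members needed 2, so genes that go with those 4 differ between the classes in part by the gate. Their values, NK receptors above all, describe the members and are not support for the name. Among 10553 genes tested 1446 (13.7%) passed, with NKT-like cells higher in 719 (6.81%) and lower in 727 (6.89%), and the median log2 fold change over all genes was −0.05. Each library gave both sums, and library was a term of the fit. Of the 12 genes of the NKT1 list 11 were higher, with a median of 4.27, and of 21 NK receptor genes tested 19 were higher with a median of 6.98. Homing genes had no common direction, with 7 of 16 tested higher, 6 lower and a median of −0.29. Leaving out the library term, the number called was 823.

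The chemokine Ccl5, stored as transcript by memory-type lymphocytes, was at 3186 and 4011 CPM in control and 2906 and 4352 CPM in cKO in members and 75.8 and 128 CPM in control and 81.6 and 79.7 CPM in cKO in other T cells, a log2 fold change of 5.24 ± 0.159 (SE, adjusted p 4.39e-11). Cxcr6 was at 483 and 937 CPM in control and 572 and 576 CPM in cKO in members and 2.56 and 5.43 CPM in control and 7.17 and 11.4 CPM in cKO in other T cells (6.55 ± 0.367, adjusted p 0.000235). Tbx21, which encodes T-bet, the regulator of the type 1 programme, stood at 143 and 118 CPM in control and 80.7 and 125 CPM in cKO against 13.2 and 7.99 CPM in control and 3.92 and 3.26 CPM in cKO (4.04 ± 0.295, adjusted p 9.35e-06). For these 3 genes the lowest member library lay above the highest library of other T cells. Ifng was higher by 4.49 ± 0.276 (SE, adjusted p 9.19e-06) and Il2rb, the β chain of the IL-2 and IL-15 receptors, by 2.62 ± 0.219 (SE, adjusted p 0.000139). Id2, an inhibitor of E proteins that effector and innate lymphocytes express, was at 1353 and 2101 CPM in control and 1449 and 1533 CPM in cKO against 116 and 207 CPM in control and 105 and 111 CPM in cKO (3.53 ± 0.128, adjusted p 4.39e-11).

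By the size of the fold among genes with at least 50 CPM, the leading higher genes were the NK receptors Klre1, Klra7, Klra1, Klrc1, Klrc2, Klra9, Klra8 and Klrk1, with the lipid flippase gene Atp8a2 and the γ chain constant gene Tcrg-C4. Klrc1 (NKG2A) was at 329 and 283 CPM in control and 214 and 199.9 CPM in cKO in members and 1.16 and 0.905 CPM in control and 1.23 and 0.238 CPM in cKO in other T cells (8.11 ± 0.228, adjusted p 8.28e-12). Klrk1 (NKG2D) was at 612 and 466 CPM in control and 569.7 and 623 CPM in cKO in members and 2.79 and 9.2 CPM in control and 4.82 and 1.91 CPM in cKO in other T cells (6.98 ± 0.608, adjusted p 0.0077). Klra genes (Ly49 receptors) are close copies of one another, and reads of one may be counted for another. The other of the 10 ran from 6.76 for Tcrg-C4 to 8.62 for Klre1. Of 9 killing genes tested 7 were higher (median 3.18), among them Gzma (5.68 ± 0.398, adjusted p 0.00075), which encodes granzyme A, Fasl (3.34 ± 0.157, adjusted p 1.45e-09) and Prf1, perforin (2.08 ± 0.351, adjusted p 0.00446).

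Transcripts of the γ chain constant genes stood out among cells that had no Trdc UMI. Tcrg-C4, a γ chain constant gene, was detected in 29%, 29.9%, 32.4% and 32.1% of members against 0.336%, 0.269%, 0.374% and 0.177% of other T cells and 6.71%, 5.0%, 5.56% and 4.6% of NK cells. Its level was 77.8 and 98.2 CPM in control and 78.1 and 92.5 CPM in cKO in members and 163 and 191 CPM in control and 200.2 and 226 CPM in cKO in T cells with a Trdc UMI. Tcrg-C1 (6.39 ± 0.342, adjusted p 2.34e-09) and Tcrg-C2 (5.93 ± 0.262, adjusted p 3.12e-10) were higher than in other T cells too. Against T cells with a Trdc UMI the log2 fold change of Tcrg-C1 lay between −0.80 and −0.51 leaving out 1 library. That call was lost, among other alternatives, without the library term (−0.63, adjusted p 0.193), with DESeq2 (−0.62, 0.363) and with cells thinned (−0.23, 0.662). Among members, Tcrg-C1 was higher with a Zbtb16 UMI (1.24 to 1.81 leaving out 1 library), but not called with DESeq2 (1.54, adjusted p 0.126). The γ constant genes resemble each other, so the split between them is uncertain.

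Cd40lg and Tnf were higher in members, while the NKT2 genes did not follow 1 direction. Cd40lg, the ligand by which T cells license B cells and dendritic cells, was at 557 and 872 CPM in control and 466 and 922 CPM in cKO in members and 264 and 385 CPM in control and 174 and 216 CPM in cKO in other T cells (1.36 ± 0.179, adjusted p 0.000667), and Tnf was higher by 2.74 ± 0.22 (SE, adjusted p 6.68e-07). Of the 9 NKT2 genes tested 3 were higher (Il17rb, Icos and Plac8) and 3 lower (Izumo1r, Ccr4 and Il6ra), with a median of 0.14. Gata3 was at 103 and 125 CPM in control and 111 and 134 CPM in cKO in members and 70.8 and 62.6 CPM in control and 179 and 214 CPM in cKO in other T cells, and the pooled difference was −0.02 ± 0.304 (SE, adjusted p 0.986), with its sign turned by DESeq2 size factors (0.00044). Il4 was at 93.7 and 378 CPM in control and 219 and 769.6 CPM in cKO in members and 0.581 and 0.905 CPM in control and 121 and 344 CPM in cKO in other T cells. In control the 2 classes lay far apart, in cKO they came within a few fold of each other, and over all libraries the difference was 3.05 ± 1.76 (SE, adjusted p 0.438), not called. Of the 12 NKT17 genes 7 passed the filter, and 3 of these were higher. Il17a had no UMI in members.

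Over all libraries, members were lower in genes of follicular helper and cycling T cells. Follicular helper genes were lower in 6 of 11 tested (median −2.08), with none higher, and cycling genes in 7 of 8 (median −2.67), with none higher. The gap in follicular helper genes lay mostly in cKO, since the sum of follicular helper markers was 99 and 86.5 CPM in control and 93.3 and 68.6 CPM in cKO in members and 127 and 95.4 CPM in control and 573 and 998 CPM in cKO in other T cells. Sostdc1, a follicular helper gene, had 0 UMIs in members and 12.8 and 10.1 CPM in control and 267 and 608 CPM in cKO in other T cells. Foxp3, the regulatory T cell factor, rested on 3 UMIs in members, a ratio of 33.7 in favour of the other T cells (95% counting interval 11.5 to 164). Igfbp4 was at 12.4 and 11.6 CPM in control and 0 and 2.98 CPM in cKO in members and 323 and 341 CPM in control and 116 and 62.2 CPM in cKO in other T cells (−5.06 ± 0.245, adjusted p 7.47e-10). Itgb8, Gpm6b, Tshz2, St8sia1, Hist1h1b, Il6ra and Dapl1 were the other genes among the 10 lowest. Ccr7, which directs naive cells to lymphoid tissue, was lower (−2.56 ± 0.168, adjusted p 2.85e-08), as was S1pr1, needed to leave it (−2.34 ± 0.273, adjusted p 0.000925). The integrin gene Itga1 was higher (5.04 ± 0.321, adjusted p 1.88e-08). Of 14 T cell receptor signalling genes 7 were lower and none was higher, with Cd4 at −2.04 ± 0.136 (SE, adjusted p 3.17e-08), Cd5 at −1.57 ± 0.131 (SE, adjusted p 3.84e-07) and Trac at −0.57 ± 0.106 (SE, adjusted p 0.00129). The calls for Trac, Sostdc1 and Tshz2 were lost without the library term (adjusted p 0.204, 0.292 and 0.133).

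**Figure D2:**
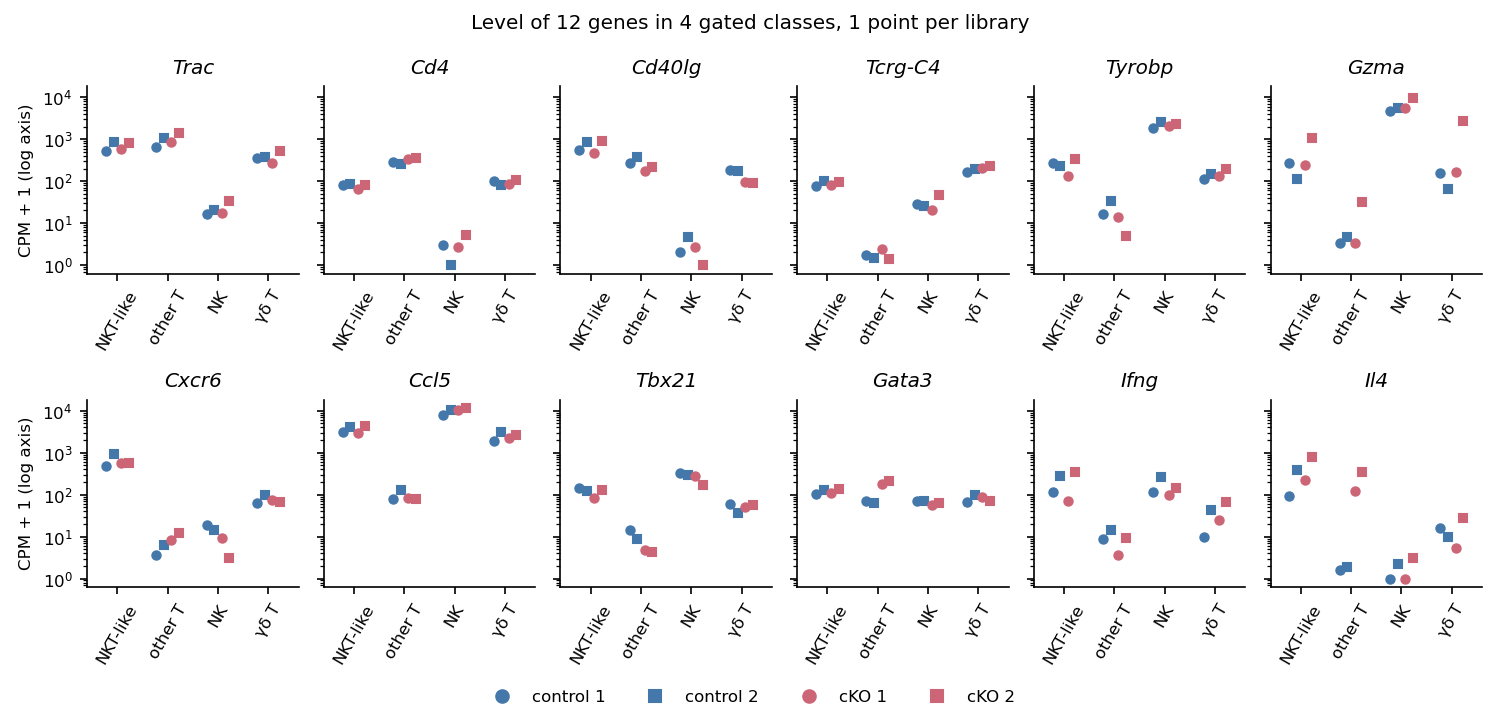
Each panel gives the level of 1 gene in CPM plus 1, on a log axis, in 4 gated classes, with 1 point per library (blue control, red cKO; circles replicate 1, squares replicate 2). Trac and Cd40lg lie far above NK cells in members and Ccl5, Tbx21 and Ifng far above other T cells, Cxcr6 is highest in members in every library, and other T cells have Il4 near 0 in control but not in cKO.

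In the NK comparison both classes needed 2 of the same 4 genes. They differed by the CD3 gate and by Trdc, which members had to lack and NK cells could carry. Genes that go with CD3 may therefore differ between the classes by the gate. Values of T cell and NK genes from this comparison, here and below, describe the members and are not support for the name. Of 6943 genes tested, 1738 (25%) were called, 884 (12.7%) higher and 854 (12.3%) lower in NKT-like cells. Of 14 T cell receptor signalling genes 12 were higher, with a median of 1.95, and of 22 NK receptor genes 18 were lower, with a median of −2.66, against 0.00 over all genes. The 6 NKT2 genes tested were all higher (median 3.00), and of the 12 NKT1 genes 10 were lower and 1, Cxcr3, was higher (median −1.15). Without the library term 967 genes were called, and DESeq2 called 960.

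Cd40lg rested on 5 UMIs in all NK cells, at 1.01 and 3.59 CPM in control and 1.62 and 0 CPM in cKO, and was higher in members by 8.55 ± 0.229 (SE, adjusted p 3.05e-21). Il4 had 2 UMIs in NK cells and 625 in members, a ratio of 483 (95% counting interval 133 to 3993). Cd6, Themis and Cd4, genes of T cell receptor signalling and selection, were higher by 6.51, 5.97 and 5.42, and Cxcr6 by 5.81 ± 0.207 (SE, adjusted p 7.65e-16). Tcrg-C1, Ccr9, Plcg1 and Pde11a completed the 10 highest. Gata3 was higher in members by 0.90 ± 0.156 (SE, adjusted p 4.84e-05) and Maf by 2.10 ± 0.147 (SE, adjusted p 3.38e-12).

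Several single genes known from mature NK cells were lower in members, and they were not tested as a set. Zeb2, a factor of terminal NK maturation, was at 46 and 18.3 CPM in control and 50.4 and 44.7 CPM in cKO in members and 1050.3 and 604 CPM in control and 951 and 432 CPM in cKO in NK cells (−4.25 ± 0.169, adjusted p 3.69e-17). Itgam (CD11b) was at 5.3 and 4.99 CPM in control and 2.52 and 20.9 CPM in cKO in members and 211 and 198 CPM in control and 239 and 150.1 CPM in cKO in NK cells (−4.66 ± 0.278, adjusted p 9.74e-13). Gzma was at 276 and 109.8 CPM in control and 239 and 1083 CPM in cKO in members and 4782 and 5607 CPM in control and 5453 and 9605 CPM in cKO in NK cells (−4.18 ± 0.515, adjusted p 0.0143), with cKO 2 highest in both classes. Tyrobp was at 278 and 235 CPM in control and 134 and 331 CPM in cKO in members and 1825 and 2518 CPM in control and 2038 and 2245 CPM in cKO in NK cells (−3.10 ± 0.167, adjusted p 8.03e-09). Prf1 (−3.56 ± 0.216, adjusted p 9.06e-08) and Eomes (−2.47 ± 0.152, adjusted p 2.69e-13) were lower too. Cma1, Serpinb9b, Khdc1c, Cdk14, Klra4, Angpt1, D5Ertd615e and Ccl3 were the other genes among the 10 lowest, of which Klra4 was not called without cKO 2 (adjusted p 0.0509). Ifng stood at 113 and 271 CPM in control and 70.6 and 346 CPM in cKO in members and 114 and 259 CPM in control and 99.1 and 139.8 CPM in cKO in NK cells, a difference of 0.33 ± 0.215 (SE, adjusted p 0.321) that was not called.

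T cells with a Trdc UMI (333 cells) were the third class. They needed no NK-type gene while members needed 2, so genes that go with the NK-type genes may differ between the classes by the gate. Values of such genes, NKT1 genes among them, describe the members and are not support for the name. The Trdc gate was also mixed, since many of its cells had Trac, as given above. Among 6824 genes tested against it 787 (11.5%) passed, with NKT-like cells higher in 412 (6.04%) and lower in 375 (5.5%), and without the library term 330 (DESeq2 368). Il4 stood at 15.1 and 8.7 CPM in control and 4.26 and 26.3 CPM in cKO there and was higher in members by 4.59 ± 0.298 (SE, adjusted p 8.25e-07). Cxcr6 was at 63.3 and 99.1 CPM in control and 74.5 and 65.1 CPM in cKO (3.04 ± 0.124, adjusted p 1.49e-15), and Tnf (3.72 ± 0.337, adjusted p 9.77e-08), Fasl (1.82 ± 0.13, adjusted p 6.83e-11) and Icos (1.67 ± 0.108, adjusted p 1.14e-11) were higher in members. Asb2, Atp8a2, Podnl1, Ckb, Bcl2a1d, Bcl2a1b and Trf completed the 10 highest. The factor Sox4 was at 1.77 and 15 CPM in control and 0 and 0 CPM in cKO in members and 103 and 108 CPM in control and 91.6 and 97.6 CPM in cKO in the Trdc-positive cells (−4.28 ± 0.413, adjusted p 1.47e-06), and Sox5 (−4.00 ± 0.379, adjusted p 1.39e-08) was lower too, with Plxdc2, St8sia1, Hdac9, Fam169b, Igfbp4, Auts2, Dapl1 and Stmn1. Leaving out 1 library moved Sox4 between −6.62 and −3.96. The call of Stmn1 was lost without the library term (adjusted p 0.173), without control 1 (0.133) and without cKO 1 (0.0744). Of the 12 NKT1 genes 9 were higher and 1, Cd7, was lower (median 1.04).

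Members were not uniform, and those with and without a Zbtb16 UMI were compared. Zbtb16 was detected in 50, 66, 50 and 28 members of control 1, control 2, cKO 1 and cKO 2, and not in 19, 31, 18 and 25. A member without it had to carry 2 of Klrb1c, Xcl1 and Ncr1, so the gate itself takes part in every difference between the sides, and the values below describe how members vary and are no evidence on Zbtb16. Median depth was 7688, 5728, 5314 and 5538 UMIs with Zbtb16 and 7876, 5708, 6190 and 5537 without. Of 3363 genes tested, 418 (12.4%) were called, 173 (5.14%) higher and 245 (7.29%) lower with Zbtb16. Without the library term 148 were called, DESeq2 called 172, and cells thinned to 3000 UMIs gave 233.

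By Zbtb16, T cell and NKT genes are likewise given as a description, with no direction read from a list. Of the 12 NKT1 genes 1, Ifng, was higher with Zbtb16 and 6 were lower (Nkg7, Klrd1, Klrk1, Il18r1, Il18rap and Cd7), with a median of −0.55, and of 9 NKT core genes tested 2 were higher (Cxcr6 and Id2) and 1, Ly6c2, was lower, with a median of 0.06. Cd40lg was at 726 and 1111 CPM in control and 590.1 and 1567 CPM in cKO with Zbtb16 and 92.8 and 346 CPM in control and 138 and 224 CPM in cKO without (2.22 ± 0.167, adjusted p 3.77e-13), and the lowest library with it lay above the highest without. Cxcr6 was at 627 and 1130.5 CPM in control and 732 and 826 CPM in cKO against 86.2 and 511 CPM in control and 147 and 304 CPM in cKO (1.62 ± 0.205, adjusted p 3.97e-05), not called without the library term (1.52, adjusted p 0.0645). Icos, Plac8, Izumo1r and Maf were the 4 of 6 NKT2 genes that were higher, Maf by 1.84 ± 0.267 (SE, adjusted p 1.52e-05). Of 14 T cell receptor signalling genes 7 were higher, 1, Cd247, was lower and 6 were not called (median 0.45, against 0.00 over all genes). Ifng (0.75 ± 0.205, adjusted p 0.00565), Tnf (1.23 ± 0.317, adjusted p 0.00575) and Il2ra (1.91 ± 0.323, adjusted p 2.97e-06) were higher, of which the call for Ifng was lost without the library term (0.60, adjusted p 0.813), without control 2 (0.55, 0.246), with cells thinned (0.67, 0.0767) and with DESeq2 (0.72, 0.372). Adam19, Ckb, Cap2, Podnl1, P2rx7, Pde11a, Bcl2a1d and Ly6a were the other genes among the 10 highest, of which Cap2 was not called with DESeq2 (adjusted p 0.0781) or without control 2 (0.0961). The calls of Cd4 and Trac were lost without the library term (adjusted p 0.0802 and 0.385) and with DESeq2 (0.174 and 0.069), and that of Cd4 also without control 2 (0.0636) and without cKO 1 (0.0551).

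The side without Zbtb16 was let in by NK-type genes alone, so a higher level of other NK genes there may follow from the gate, and the levels are given as a description. Eomes (chromosome 9, 118478212 to 118486132, plus strand), a factor of NK and memory T cells, was detected in 4%, 1.52%, 0% and 0% of members with Zbtb16 and 47.4%, 29.0%, 50% and 44% of those without (0 of 50 and 0 of 28 cells allow shares of cells with a UMI of up to 6% and 10.7%), with log2 fold change −3.99 ± 0.412 (SE, adjusted p 1.29e-08). Of 14 homing genes tested 5 were lower with Zbtb16, 2 were higher (Cxcr6 and Itgal) and 7 were not called (median −0.32). Among the 5 were Klf2, S1pr1 and Itga4, with log2 fold changes of −2.15, −1.85 and −2.34. Of 11 NK receptor genes tested 8 were lower with Zbtb16 and none was higher (median −1.99), led by Klra8 (−4.06 ± 0.374, adjusted p 1.29e-06) and Klra7 (−4.04 ± 0.279, adjusted p 2.62e-10), with Klra8 not called without the library term (−3.76, adjusted p 0.18). Tyrobp was at 147 and 82.3 CPM in control and 41.7 and 45.9 CPM in cKO with Zbtb16 and 637 and 569 CPM in control and 377 and 639.8 CPM in cKO without (−2.84 ± 0.186, adjusted p 1.39e-18). The sum of 11 NK markers, Ncr1 among them, was 1044 and 424 CPM in control and 305 and 362 CPM in cKO with Zbtb16 and 3799.8 and 2692 CPM in control and 3149 and 5360.2 CPM in cKO without, against 14515 to 22087 CPM in NK cells. Ncr1 is itself a gene of the rule, and no direction is read from this sum, from the NK receptor count or from Eomes and Tyrobp. Gas7, Lrmda, Cd244a, Anxa2, Atp1b1 and Ifngas1 were also among the 10 lowest.

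Il4, as a transcript, was on the side of Zbtb16 in each library but was not called. It was at 128 and 445 CPM in control and 295 and 1326 CPM in cKO with Zbtb16 and 0 and 229 CPM in control and 18.4 and 168 CPM in cKO without (2.18 ± 0.629, adjusted p 0.171), and each library was higher with Zbtb16. A single member held 97 of the members' 227 Il4 UMIs in control 2, and another 121 of 258 in cKO 2. Levels of Il4 in those libraries lean on single cells. The difference was called in 6 of the alternatives, among them without control 1 (2.04), without control 2 (3.19), without cKO 1 (2.03) and with DESeq2 (3.08, adjusted p 0.0213). By cells, Il4 was found in 48%, 57.9%, 42.3% and 64.1% of members with a Cxcr6 UMI and in 0%, 4.76%, 6.25% and 7.14% of those without. None of the 42 members with Ncr1, a gene of the rule, had an Il4 UMI, which limits the share of cells with a UMI to 7.14% and says nothing of cells whose transcripts were not captured. Tbx21 was not called by Zbtb16 (−0.07 ± 0.245, adjusted p 0.925).

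**Figure D3:**
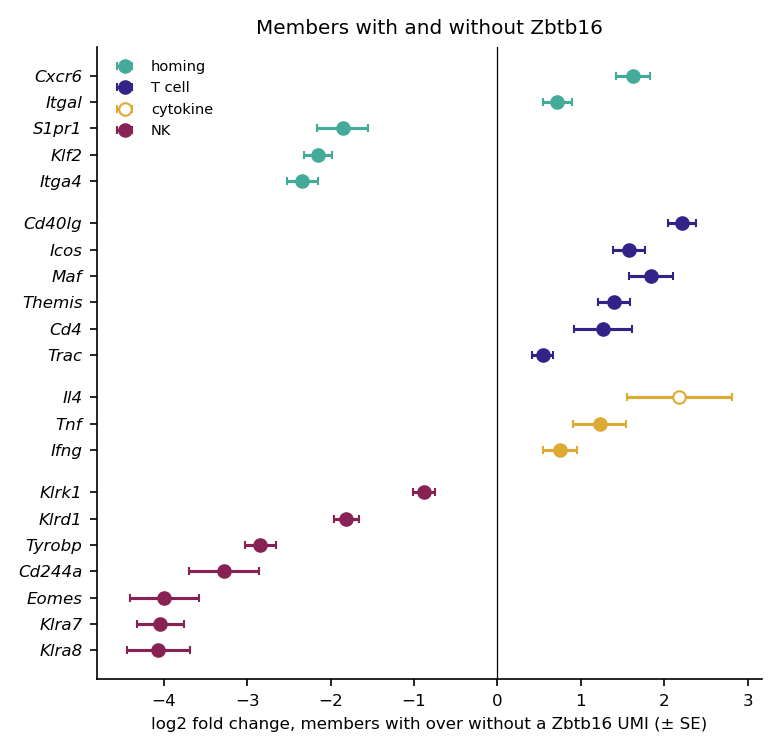
Points are log2 fold changes of members with a Zbtb16 UMI over members without, with SE bars, for 21 genes grouped as homing, T cell, cytokine and NK genes. Filled points were called by edgeR and the open point, Il4, was not. Of the genes shown, NK receptor genes and Eomes lie left of 0 and Cd40lg, Maf, Icos and Cxcr6 right of it. The genes were picked for display and are not whole lists. Cd247, which was called lower, and the other genes that were not called are left out, so no direction is read from the groups.

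The next question was where Il4 was found in the spleen, since NKT cells are known as an early source of IL-4. Il4 (chromosome 11, 53602982 to 53618669, minus strand) was detected in 34.8%, 46.4%, 33.8% and 49.1% of members, and with cells thinned to 3000 UMIs in 22.1%, 35.9%, 27% and 40.4%. NK cells had it in 0%, 0.556%, 0% and 1.15%, at medians of 5846, 4483.5, 4704.5 and 4656 UMIs, and B cells, which should lack it, in 0.222%, 0.159%, 1.1% and 2.54%, at medians of 5984.5, 4822, 5810 and 6525 UMIs. Other CD8-negative T cells had it in 0.336%, 0.448%, 19.3% and 35.2%. The members' shares overlapped between the genotypes, while those of other T cells lay close to the B cell shares in control and far above them in cKO.

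The members held very different parts of a library's Il4 UMIs in control and cKO. They held 53 of 138 Il4 UMIs in control 1 (38.4%, exact 95% interval 30.3% to 47.1%) and 227 of 307 in control 2 (73.9%, 68.7% to 78.8%). In cKO they held 87 of 1573 UMIs (5.53%, 4.45% to 6.78%) and 258 of 6082 (4.24%, 3.75% to 4.78%). These intervals treat each UMI as an independent draw, though 1 cell can hold many, so they are too narrow. Other CD8-negative T cells, including those with 1 NK-type gene, held 17.4% and 11.4% in control and 75.5% and 74.8% in cKO. The mean share of members was 56.2% ± 25.1 in control and 4.89% ± 0.911 in cKO (SD, n = 2), without overlap, with an exact two-sided permutation p of 0.333, the smallest possible. A single member held 97 UMIs in control 2 and another 121 in cKO 2. Without the member of most Il4 UMIs in each library the shares were 34.6% and 61.9% in control and 4.44% and 2.30% in cKO. Counting cells with an Il4 UMI in place of UMIs, members were 44.4% and 52.3% of such cells in control and 5.61% and 2.77% in cKO.

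Other cytokine and homing transcripts gave different values. Members held 15.9% and 22.7% of the Ifng UMIs in control and 12.1% and 17.4% in cKO, which overlapped. Of Cxcr6 they held 27.6% and 39.6% in control and 30.1% and 13.8% in cKO. Il10, an inhibitory cytokine, had no UMI in members, of 297 to 543 UMIs per library, for which the exact 95% upper limit of the members' share was 0.677% to 1.23%.

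**Figure D4:**
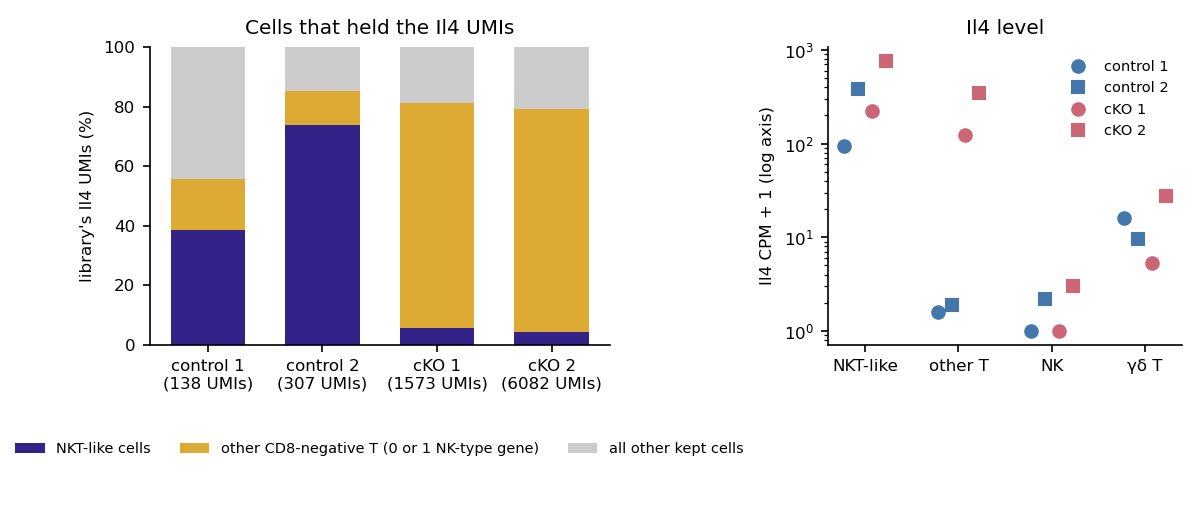
The left panel divides the Il4 UMIs of each library (total in brackets) among NKT-like cells, other CD8-negative T cells (here with those that carried 1 NK-type gene) and the rest, and NKT-like cells hold 38.4% and 73.9% in control against 5.53% and 4.24% in cKO. The right panel gives Il4 in CPM plus 1 on a log axis for 4 classes, 1 point per library, where the members' values overlap between the genotypes, with cKO above control in each batch, and those of other T cells do not overlap.

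Within NKT-like cells, few genes were called between cKO and control. Of 6497 genes tested edgeR called 1 (0.0154%), with 148 at an unadjusted p under 0.05, and the median log2 fold change was 0.00. The called gene was Egr3, an immediate early factor induced by the T cell receptor (chromosome 14, 70077203 to 70082614, plus strand). It was at 10.6 and 11.6 CPM in control and 75.6 and 62.6 CPM in cKO, on 6, 7, 30 and 21 UMIs, and both cKO libraries lay above both controls. Its log2 fold change was 2.63 ± 0.486 (SE, adjusted p 0.0031). Across the alternatives its adjusted p lay between 8.92e-05 and 0.9997, and the call was lost with DESeq2 (2.65, adjusted p 0.9997), with cells thinned to 3000 UMIs (2.97, 0.237), without members that had Ncr1 (2.54, 0.103) and without cKO 1 (2.52, 0.0676), while the fold stayed close to that reported or above it. DESeq2 called 0 genes, with 22 at an unadjusted p under 0.05.

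The batch number pairs a control with a cKO library by the labels, and with it as a block edgeR called 5 genes. These were Fos (1.24, adjusted p 2.59e-06), Egr3 (2.62, 8.92e-05), Il4 (1.13, 8.92e-05), Egr1 (1.53, 0.00134) and Txnip (−0.97, 0.00407), named after their values were seen. Without the block Egr1 was at 37.1 and 51.6 CPM in control and 164 and 92.5 CPM in cKO (1.55 ± 0.367, adjusted p 0.12) and Fos at 216 and 276 CPM in control and 489 and 662 CPM in cKO (1.25 ± 0.323, adjusted p 0.323), both without overlap and not called. An exact permutation test of 2 against 2 libraries cannot go below 0.333. A lack of overlap is therefore weak ground, here and for Egr3 and Klra8, and its share over all genes tested was not counted. Fos and Egr1 are also induced by tissue dissociation, and the list of dissociation and heat shock genes had 0 of 4 genes called with a median of −0.26. Whether dissociation differed between the libraries was not tested, and the sum of myeloid markers, highest in the members of cKO 1 (426 CPM), was not tested either for its part in Egr3, Egr1 or Fos.

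The value for Il4 in members changed with single libraries. Its log2 fold change was 1.09 ± 1.16 (SE, adjusted p 0.9995), called with the batch block, 2.42 without control 2 (adjusted p 0.00132) and −0.12 without cKO 2. The levels overlapped by genotype, and within each batch cKO was higher. Of the members' Il4 UMIs, 1 cell held 97 of 227 in control 2 and 1 cell 121 of 258 in cKO 2. Among effector genes, Ifng (0.13 ± 1.08, adjusted p 0.9995), Tbx21 (−0.33 ± 0.343, adjusted p 0.9995), Gata3 (0.13 ± 0.337, adjusted p 0.9995), Cd40lg (−0.01 ± 0.326, adjusted p 0.9995), Cxcr6 (−0.29 ± 0.321, adjusted p 0.9995) and Ccl5 (0.04 ± 0.301, adjusted p 0.9995) were not called. The NKT1, NKT2, NK receptor and T cell receptor signalling lists had 0 genes called, with medians of 0.06, 0.13, 0.00 and 0.01. The activation list had a median of 0.41 with 0 of 11 called. The 5 genes lower in cKO with the smallest p were Klra8 (−1.94, adjusted p 0.853), Ccr9 (−1.30), Car2 (−1.64), Poglut1 (−2.23) and Pmaip1 (−2.60), none called. Klra8, an activating Ly49 receptor gene, was at 259.9 and 115 CPM in control and 20.2 and 77.6 CPM in cKO, lower in both cKO libraries, and it was called with cells thinned (−2.26, adjusted p 0.0088), with no filter on low counts, without control 2 (−2.42) and without cKO 2 (−3.20).

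The same libraries allow a test of whether the genotype difference in NKT-like cells was that of other CD8-negative T cells. In the latter 274 of 12242 genes (2.24%) passed edgeR's threshold, 260 (2.12%) with more and 14 (0.114%) with less transcript in cKO. Marker lists of other cell types moved with genotype in that mixed class, the sum of 4 regulatory T cell markers at 797 and 825 CPM in control and 1995 and 2212 CPM in cKO and of 4 group 2 innate lymphoid markers at 72.2 and 86.7 CPM in control and 375 and 453 CPM in cKO, besides the follicular helper markers given above. In members these sums were 548 and 511 CPM in control and 497 and 749 CPM in cKO and 483 and 366 CPM in control and 429 and 391 CPM in cKO. The part of the class's make-up in its genotype difference, and in the comparison with members, was not tested. Of the 274, 60 passed the filter on low counts in members, where their median log2 fold change was −0.03 against 1.90 in other T cells, and 0 were called in members (by edgeR, with 148 of all genes tested there at an unadjusted p under 0.05). That count comes from the fit without the batch block, and with the block 1 of the 60, Il4, was called in members (1.13, adjusted p 8.92e-05). These 60 were chosen by their difference in other T cells, so nothing is read from the distance between the medians. The difference itself was tested as the interaction of class and genotype with library as a block. It was called for 395 of 11558 genes (3.42%), 153 (1.32%) with a higher and 242 (2.09%) with a lower genotype difference in members. A gene could enter this test on its counts in other T cells alone, and only 6497 genes were tested within members. A call therefore need not rest on a level that was well measured in members. Of the 274 genes above, 269 were tested here and 81 called, 80 of them with a lower difference. Over all genes tested, 3.42% were called and 2.09% were lower. The interaction subtracts the difference by which the 274 were chosen, which was positive for 260 of them. A lower value was thus favoured in advance, and nothing is read from the counts of 81 and 80. The count of 395 rests on the library block: without it edgeR called 2 genes, Pmaip1 (−5.03, adjusted p 0.0379) and Asb2 (−3.85, adjusted p 0.0391), with 698 at an unadjusted p under 0.05. DESeq2 called 130, and leaving out 1 library gave 254 without control 1, 236 without control 2, 443 without cKO 1 and 184 without cKO 2.

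Among the genes that differed, Il4 had the lowest adjusted p. In other T cells it differed by 8.20 ± 0.73 (SE, adjusted p 0.0118), in members by 1.09, and the difference of the 2 was −7.03 ± 0.31 (SE, adjusted p 4.84e-26), with an adjusted p of 0.198 without the block. In other T cells of control Il4 lay near 0, in shares of cells close to those of B cells given above. The sizes 8.20 and −7.03 depend on that low level. Further named genes that were higher in cKO other T cells are given by their levels. They are single genes, and no direction is read from them for the NKT2 or follicular helper lists. Maf, a factor of IL-4 and follicular helper programmes, was at 177 and 249.6 CPM in control and 209 and 224 CPM in cKO in members and 95.8 and 83.5 CPM in control and 336 and 434 CPM in cKO in other T cells (−1.97 ± 0.213, adjusted p 7.40e-10). Gata3 gave −1.35 ± 0.241 (SE, adjusted p 0.000111). Pdcd1 (PD-1) was at 15.9 and 15 CPM in control and 7.56 and 14.9 CPM in cKO in members and 22.6 and 16.3 CPM in control and 145 and 214 CPM in cKO in other T cells (−3.59 ± 0.563, adjusted p 1.00e-05). Asb2 was at 76 and 126 CPM in control and 68.1 and 56.7 CPM in cKO in members and 4.65 and 5.43 CPM in control and 35.8 and 59.99 CPM in cKO in other T cells (−3.76 ± 0.344, adjusted p 4.25e-12). Stx11 was at 28.3 and 25 CPM in control and 10.1 and 29.8 CPM in cKO in members and 16.3 and 16 CPM in control and 126 and 210.3 CPM in cKO in other T cells (−3.73 ± 0.448, adjusted p 1.65e-08).

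Of the 12 NKT1 genes 8 were not called. The genotype difference in members exceeded that in other T cells for 4, against 1.32% of all genes tested, Tbx21 (1.30 ± 0.384, adjusted p 0.0412), Ifng (1.22 ± 0.309, adjusted p 0.0117), Cxcr3 (0.95 ± 0.245, adjusted p 0.0133) and Klrd1 (3.03 ± 0.269, adjusted p 1.96e-10), and for none was it lower. Klrd1 (CD94) was at 306 and 379 CPM in control and 323 and 399.7 CPM in cKO in members and 22.8 and 35.7 CPM in control and 5.38 and 2.86 CPM in cKO in other T cells, so the gap came with a lower level in cKO other T cells. Tbx21 in other T cells was at 13.2 and 7.99 CPM in control and 3.92 and 3.26 CPM in cKO. Egr3, the gene called within members, had a log2 fold change of 2.63 in members and 0.42 in other T cells, with a difference of 2.21 ± 0.512 (SE, adjusted p 0.0044). None of these 5 was called without the block, where the adjusted p ran from 0.0836 for Klrd1 to 0.992 for Ifng. With the block, DESeq2 did not call Tbx21 (adjusted p 0.148), Ifng (0.0857) or Cxcr3 (0.107). Tbx21 and Ifng were also lost without control 1, control 2 or cKO 2 (lowest values 0.83 and 0.76), Cxcr3 without control 1 or cKO 2 (lowest 0.74), and Egr3 without control 2 (1.82, adjusted p 0.226).

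**Figure D5:**
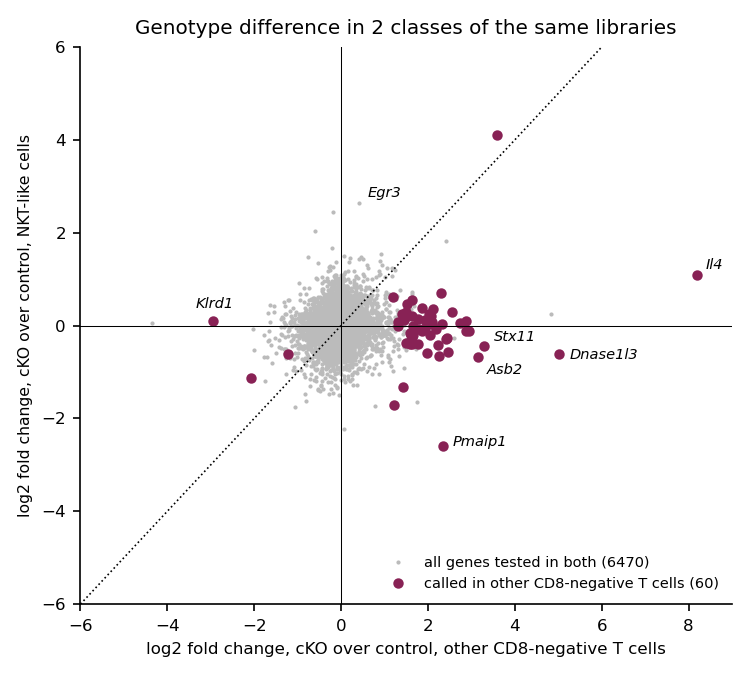
Each point is a gene tested in both classes, placed by its log2 fold change of cKO over control in other CD8-negative T cells (x) and in NKT-like cells (y) of the same libraries, with the 60 genes called in other T cells in purple and a dotted line of equal values. Most purple points lie right of 0 on x (median 1.90), by which they were chosen, and near 0 on y (median −0.03), with Il4 farthest right, while Egr3 lies above the cloud.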

How the data were processed

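Total live splenocytes were captured by the authors with a droplet 3′ kit, and the authors deposited 1 matrix of raw UMI counts per library, with 32285 genes. The submitters' processing notes name GRCm38 and mm10, and no source used here gives the aligner. As in the study's methods, a cell was kept with over 200 UMIs and over 100 genes if mitochondrial transcripts were no more than 10% of its UMIs. Members were gated on the 12 genes of the rule, which stayed in the library sizes and were left out of every test. The members and the gene lists were chosen with earlier results of these data known. Counts were summed per library and class (at least 10 cells), since cells are not replicates, and tested with edgeR 4.0.16 in R 4.3.3 (TMM scaling, filterByExpr, quasi-likelihood F test, Benjamini-Hochberg adjusted p under 0.05). Each library pools 2 to 3 mice. For cKO against control, p-values refer to the spread between pools. Where library was a term of the fit, they refer to the spread, across libraries, of the difference between both sums. With 2 or 3 residual degrees of freedom, these spreads were estimated with information shared across genes. Precision also depends on UMI counts, which are given for some genes only. The SE of an edgeR value is its absolute log2 fold change divided by the square root of the F statistic. Comparisons between classes had library as a term, because each library gives both sums. The comparison of cKO with control had none, and the labels' batch number, which equals the replicate number, was added as an alternative. Batch mates deviated together from their group means (r = 0.284 across 6497 genes), with batch given by the labels. Replicates of a group differed beyond sampling noise (chi-square per degree of freedom 4.91 in control and 3.37 in cKO), so none was counted as a repeat.

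Genes were named as the 10 highest and 10 lowest called genes with at least 50 CPM in the higher group (the 5 of smallest p where none was called), plus members of 17 gene lists; predicted genes, receptor segments, mitochondrial and ribosomal genes were left out, and a few further genes are not reported here. Shares carry exact 95% binomial intervals and differences between libraries an exact two-sided permutation test. A count of 0 was given a limit of 3 counts, and intervals and limits cover counting error only. Those on UMIs treat each UMI as independent and are too narrow where single cells hold many. Shares of cells with a UMI were repeated with cells thinned to 3000 UMIs, which left 68, 92, 63 and 52 members. Doublets were scored with simulated doublets and nearest neighbours (scikit-learn 1.9.0). The alternatives were DESeq2 1.42.0, its size factors in edgeR, no filter on low counts, thinned cells, stricter members, doublets left out, the block, and leaving out each library. The tests were checked on simulated counts with known folds and the same dispersion for every gene. Of 100 genes changed 4-fold, 76 were recovered for cKO against control and 22 for the interaction. Of 100 changed 8-fold, these were 94 and 70. The other comparisons recovered 82 to 94 of 100, and each comparison had 4 to 6 false calls. The 4 libraries of sorted YFP-positive cells were used only for barcodes and for the counts among the closing observations.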

Additional observations from a re-analysis of the deposited data

Results flagged for a closer look

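The genotype difference in NKT-like cells differed from that in other CD8-negative T cells for 395 of 11558 genes, by the edgeR interaction of class and genotype with library as a block. Without the block 2 genes were called, and of the genes listed here Asb2 was the 1 that stayed called (adjusted p 0.0391). Values are log2 differences, positive where cKO over control was higher in members.

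The 10 highest by size were Klra7 (3.07), Klrd1 (3.03), Egr3 (2.21), Atp8b4 (1.96), Gpr18 (1.67), Maml3 (1.67), Utp14a (1.55), Acoxl (1.53), Hs3st3b1 (1.52) and Ugcg (1.52). The 10 lowest were Vdr (−12.11), Il4 (−7.03), Cd80 (−6.31), Dnase1l3 (−5.55), Dst (−5.09), Syt11 (−4.62), Ttn (−4.49), Asb2 (−3.76), Stx11 (−3.73) and Pdcd1 (−3.59). The value for Vdr rests on 2 UMIs in members and depends on the prior count of the fit. That for Il4 depends on a level near 0 in other T cells of control. Leaving out 1 library moved Klra7 between 2.73 and 5.30, Cd80 between −11.56 and −4.71, Dst between −10.69 and −3.65, Syt11 between −10.58 and −3.46 and Dnase1l3 between −8.43 and −4.16, so these sizes rest on single libraries. With the block, calls were lost without control 1 for Klra7 (adjusted p 0.322), Maml3 (0.244), Acoxl (0.169) and Vdr (0.11). They were lost without control 2 for Egr3 (0.226), Utp14a (0.0839), Acoxl (0.0683), Vdr (0.0999), Cd80 (0.22) and Dst (0.456). Without cKO 1 they were lost for Maml3 (0.323) and Utp14a (0.0669), and without cKO 2 for Acoxl (0.136), Vdr (0.0845) and Syt11 (0.0931). With DESeq2 Utp14a was not called (0.0539).

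Of the listed genes, the genotype difference was higher in members than in other T cells for Tbx21 (1.30), Ifng (1.22), Cxcr3 (0.95), Lef1 (1.11), Bach2 (1.07) and S1pr1 (1.16). It was lower in members for Gata3 (−1.35), Maf (−1.97), Cxcr6 (−1.43), Cd44 (−1.03) and Il2rb (−1.02). These values compare genotype differences and do not say in which class a gene's level was higher. Among these 11, the calls of Tbx21, Ifng, Cxcr3 and S1pr1 were lost with DESeq2. Calls were also lost without control 1 for Tbx21, Ifng, Cxcr3 and Cd44 (adjusted p 0.161 for Cd44), without control 2 for Tbx21, Ifng and S1pr1 (0.304 for S1pr1), without cKO 1 for Bach2 (0.137) and without cKO 2 for Tbx21, Ifng, Cxcr3 and S1pr1 (0.409 for S1pr1). With 2 libraries a group, no single library could be tested for standing apart.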

How the results depend on the processing

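Over 1377 alternatives for 142 gene and comparison pairs, 1265 kept direction and side of the threshold, 94 lost the call, 14 gained it and 4 turned direction: Il4 in cKO against control without cKO 2 (range leaving out 1 library −0.12 to 2.42), and Gata3 against other T cells with DESeq2 size factors (0.000441), without cKO 1 (0.20) and without cKO 2 (0.21; range leaving out 1 library −0.32 to 0.21). Of the 94, 40 came without the replicate block. No member and no NK cell was marked as a doublet. Leaving out doublets therefore repeated the same sums for cKO against control, NK cells and Zbtb16, and those alternatives could only stay the same. The log2 difference in the share of NKT-like cells was 0.0201 with TMM over classes and −0.64 to −0.27 leaving out 1 library. Genes called between cKO and control were 1, against 5 with the replicate block, 0 with DESeq2, 4 with no filter, 0 without Ncr1-positive members and 3 to 6 leaving out 1 library. The block lost no call there and added Fos, Il4, Egr1 and Txnip. Without the replicate block the calls were 823 against other T cells, 967 against NK cells, 330 against Trdc-positive cells, 148 by Zbtb16 and 2 for the interaction. DESeq2 called 960 against NK cells, 368 against Trdc-positive cells, 172 by Zbtb16 and 130 for the interaction, and thinned cells gave 1119 against NK cells and 233 by Zbtb16. Leaving out 1 library gave 1013 to 1484 (other T), 1316 to 1725 (NK), 598 to 766 (Trdc), 306 to 399 (Zbtb16) and 184 to 443 (interaction). The members' mean share of Il4 UMIs, in alternatives chosen after seeing the data, was in cKO 3.37% without the top member, 7.02% thinned and 3.20% with at least 3 NK-type genes (37.2% in control, against 56.2%), and over single libraries 38.4% to 73.9% in control and 4.24% to 5.53% in cKO. The causes were not tested, beyond the smaller sums that thinning leaves. With 53 to 97 members a library, depth limits what low genes can show.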

Other observations

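The libraries sorted for YFP, the reporter of Cre, contained few cells that met the NKT-like gates. These were 6 of 9276 (0.0647%, exact 95% interval 0.0237% to 0.141%) and 1 of 11652 (0.00858%) cells in control 1 and 2, and 12 of 10133 (0.118%, 0.0612% to 0.207%) and 1 of 10460 (0.00956%) in cKO 1 and 2. Of the 328, 61, 349 and 30 cells past the CD3 and B gates there, these were 1.83%, 1.64%, 3.44% and 3.33%, beside 1.88% to 3.56% in the total libraries. Whether they carried YFP or were carried over in the sort was not tested.

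Within members, Il4 was seen with type 1 genes as well as without them. It was found in 37.2%, 56.9%, 45.8% and 38.5% of members with a Tbx21 UMI (control 1, control 2, cKO 1, cKO 2) and in 30.8%, 34.8%, 27.3% and 59.3% of those without. With an Ifng UMI the shares were 37.9%, 52.5%, 25% and 55.6%, and without 32.5%, 42.1%, 36.5% and 42.3%. Neither gene split members with and without Il4 the same way in all 4 libraries. Il13, a second type 2 cytokine, had 0, 0, 3 and 6 UMIs in members, of 1, 1, 39 and 96 in the libraries.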
